A study of Tupaia belangeri with 6 samples.

Results

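The genes described here are 10 genes that are imprinted in human and mouse, SNRPN, NDN, PEG3, MEST, PLAGL1, DLK1, PEG10, IGF2, CDKN1C and GRB10. They were looked up by exact gene name in tables of RNA abundance from the prefrontal cortex (PFC) of the tree shrew Tupaia belangeri, a small mammal used as a model close to primates. Of the 10 names, 8 had a row among the 95863 loci of the tables, and 22608 of these loci carried a gene name. PEG3 and IGF2 had no row of that name in the tables used here. Of the 8 genes with a row, 6 were above 0 in every animal, DLK1 was above 0 in 2 animals, and the row named SNRPN was listed at 0 in all 6. The same 6 genes that were above 0 in every animal passed the filter for the sex comparison.

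Polyadenylated RNA was sequenced from the PFC of 6 adult animals, 3 females (numbered 1, 3 and 4) and 3 males (numbered 1, 4 and 5), with no treatment or genotype named in the labels. According to the sample overview of the study, all males were older than all females, and sex and age cannot be told apart. Each number marks a separate animal, and each p-value below rests on the spread between these animals only. The SEs and p-values of limma, the linear model of the sex comparison, also draw on the spread of other loci of similar level. Such an SE can thus differ from the spread of the gene itself. Values are given as TPM, a transcript abundance scaled to transcript length and to the library. TPM keeps no sequencing depth, and the deposited mean coverage was not turned into read counts here, so no interval for counting error is given.

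In genomic imprinting, a gene is expressed mainly from the copy inherited from one parent, and DNA methylation laid down in the germ line tells the copies apart. Imprinted genes tend to lie in clusters that share a control region. In human and mouse, SNRPN, NDN, PEG3, MEST, PLAGL1, DLK1, PEG10 and IGF2 are paternally expressed, CDKN1C is maternally expressed, and GRB10 is expressed from the maternal copy in most mouse tissues and from the paternal copy in mouse neurons. Many of them act in growth or in brain development. TPM adds both copies together, so these tables do not show whether a gene is imprinted in the tree shrew. In bulk tissue, fewer cells of a type and less RNA per cell cannot be told apart.

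The 6 expressed genes covered a wide range of levels. Mean abundance was 137.7 TPM for NDN, 36.4 TPM for PEG10, 21.6 TPM for GRB10, 14.8 TPM for CDKN1C, 6.33 TPM for PLAGL1 and 4.28 TPM for MEST. DLK1 followed with 0.171 TPM, which became 0.037 TPM without female 1. The order was compared between neighbours by an exact paired permutation test on log2(TPM + 1), two-sided, whose smallest possible p with 6 animals is 0.03125. NDN was above PEG10, PEG10 above GRB10, GRB10 above CDKN1C, CDKN1C above PLAGL1 and MEST above DLK1 in 6 of 6 animals (exact p = 0.03125 for each pair, 0.0375 after Benjamini-Hochberg adjustment over 6 pairs). The pairs were set by ranking the means of the same animals, so each p only says how evenly the animals shared that order. The mean differences of these 5 pairs were 1.93, 0.70, 0.52, 1.08 and 2.19 on the log2(TPM + 1) scale, with SDs of 0.69, 0.43, 0.44, 0.48 and 0.36. PLAGL1 was above MEST in 5 of 6 animals, by 0.49 ± 0.41 (SD, n = 6; exact p = 0.0625, adjusted p = 0.0625). In male 1 this order was turned, with MEST at 5.19 TPM and PLAGL1 at 4.91 TPM.

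**Figure D1:**
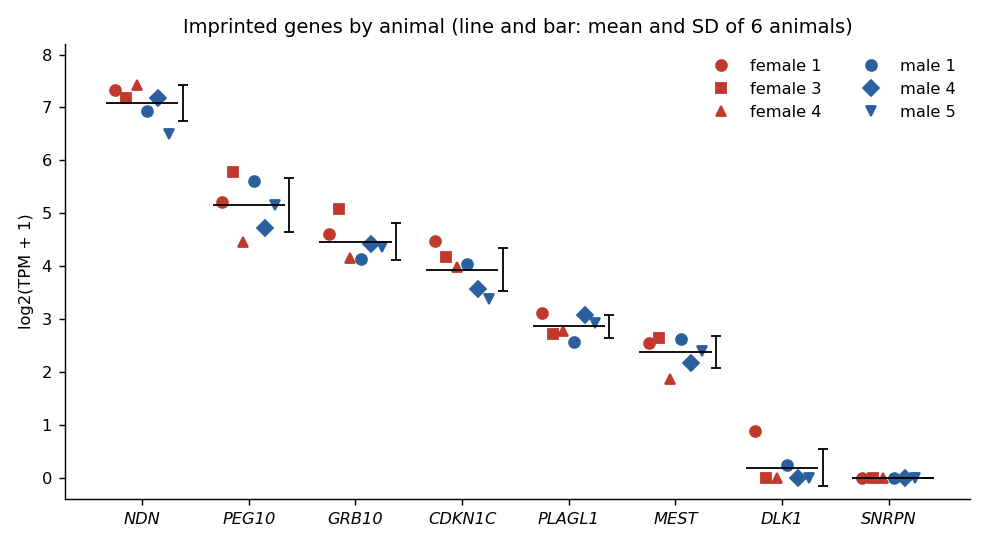
Abundance of the 8 imprinted genes with a row, as log2(TPM + 1), with each animal as a point (females red, males blue), the mean as a line and the SD of 6 animals as a bar. The genes fall in steps from NDN, at a mean of 137.7 TPM, to MEST, at 4.28 TPM, and the points of the sexes overlap for each of the 6 genes above 0 in every animal.

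NDN encodes necdin, a MAGE family protein of neurons that have left the cell cycle. Its row lies on chr22:29011167-29012747 (minus strand, TS_3.0). NDN was at 159.4, 143.1 and 170.2 TPM in females 1, 3 and 4, and at 120.5, 143.9 and 89.0 TPM in males 1, 4 and 5. Male 4 lay above female 3, so the sexes overlapped. The mean of 137.7 ± 29.2 TPM (SD, n = 6) was higher than that of 95.7% of the 30238 loci tested.

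PEG10 derives from a retrotransposon and encodes Gag-like proteins that are needed in the placenta. It lies on chr5:99961604-99975761 (plus strand). PEG10 was at 36.0, 54.2 and 20.9 TPM in females 1, 3 and 4 and at 47.6, 25.4 and 34.6 TPM in males 1, 4 and 5. Both the highest and the lowest animal were females, and the highest was 2.59 times the lowest, the widest ratio among the 6 genes.

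GRB10 encodes an adaptor protein that dampens signalling from the insulin and IGF receptors. Its row spans chr5:17892554-18094229 (minus strand). GRB10 was at 23.3, 32.7 and 16.8 TPM in females 1, 3 and 4 and at 16.5, 20.5 and 19.6 TPM in males 1, 4 and 5. Female 3 stood above the other 5 animals, which lay between 16.5 and 23.3 TPM.

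CDKN1C encodes p57, an inhibitor of cyclin-dependent kinases that restrains cell division. It lies on chr17:47342841-47355314 (minus strand). CDKN1C was at 21.3, 16.9 and 14.9 TPM in females 1, 3 and 4 and at 15.5, 10.9 and 9.39 TPM in males 1, 4 and 5. Male 1 lay above female 4, and the other males lay below every female.

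PLAGL1 encodes a zinc finger transcription factor that regulates other imprinted genes. Its row spans chr3:22956032-23034657 (plus strand). PLAGL1 was at 7.61, 5.56 and 5.87 TPM in females 1, 3 and 4 and at 4.91, 7.42 and 6.64 TPM in males 1, 4 and 5. It varied least of the 6 genes, with an SD of 0.21 on the log2(TPM + 1) scale, against a median of 0.49 over the loci tested.

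MEST encodes a protein of the alpha/beta hydrolase fold family. It lies on chr5:55582730-55598408 (minus strand). MEST was at 4.84, 5.23 and 2.63 TPM in females 1, 3 and 4 and at 5.19, 3.50 and 4.27 TPM in males 1, 4 and 5. Female 4 was the lowest of the 6 animals, and females 1 and 3 and male 1 were the 3 highest.

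DLK1 encodes a transmembrane relative of the Notch ligands, known from growth and fat cell development. Its row spans chr4:61829388-61847104 (plus strand). DLK1 was at 0.838 TPM in female 1 and 0.187 TPM in male 1 and was listed at 0 in the other 4 animals, so it did not pass the filter. TPM gives no detection limit, and a value of 0 in these tables need not mean that no RNA was present.

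SNRPN encodes SmN, a spliceosomal protein abundant in neurons, and in human its transcript also carries the SNURF reading frame. The row named SNRPN lies on chr16:36853153-36857205 (minus strand), away from the NDN cluster on chromosome 22, and was listed at 0 in every animal. The row named SNURF lies next to NDN, on chr22:29077241-29152330 (plus strand). It was at 416.3, 343.3 and 453.6 TPM in females 1, 3 and 4 and at 331.3, 368.2 and 258.7 TPM in males 1, 4 and 5. RefSeq, for the tree shrew assembly TupChi_1.0, lists SNRPN as the next named gene to SNURF. Whether the SNURF row includes SNRPN transcripts is not stated in the tables, so the 0 of the row named SNRPN is a value of the chromosome 16 locus only.

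The neighbourhoods of these genes kept the gene content known from human and mouse clusters in part. Within 1 Mb of NDN, rows were found for MKRN3, MAGEL2, SNURF and ATP10A, at gaps of 33097, 16129, 64493 and 452012 bp. MAGEL2, a relative of NDN, had a mean of 5.13 TPM, MKRN3 1.01 TPM, ATP10A 14.4 TPM and SNURF 361.9 TPM. NDN thus lay between the levels of SNURF and of its other cluster neighbours. The NDN to SNURF ratio was 0.379 ± 0.025 (SD, n = 6) and ranged from 0.344 to 0.417, a CV of 6.54%, while NDN alone had a CV of 21.2%. Among 11278 named genes with a strand and at least 1 TPM on average, ranked by the mean absolute difference of their centred log2(TPM + 1) profile from that of NDN over 6 animals, SNURF was 13th, MAGEL2 1191st, ATP10A 3489th and MKRN3 8996th. The points share libraries, so this likeness is a description and was not tested.

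**Figure D2:**
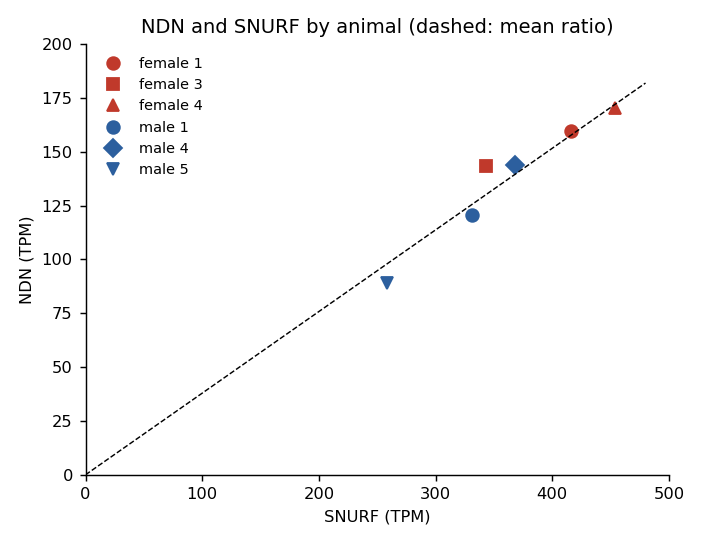
NDN against SNURF, both in TPM, with each animal as a point (females red, males blue) and the mean ratio of 0.379 as a dashed line. The points follow the line from male 5, with NDN at 89.0 TPM, to female 4, with NDN at 170.2 TPM.

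**Figure D3:**
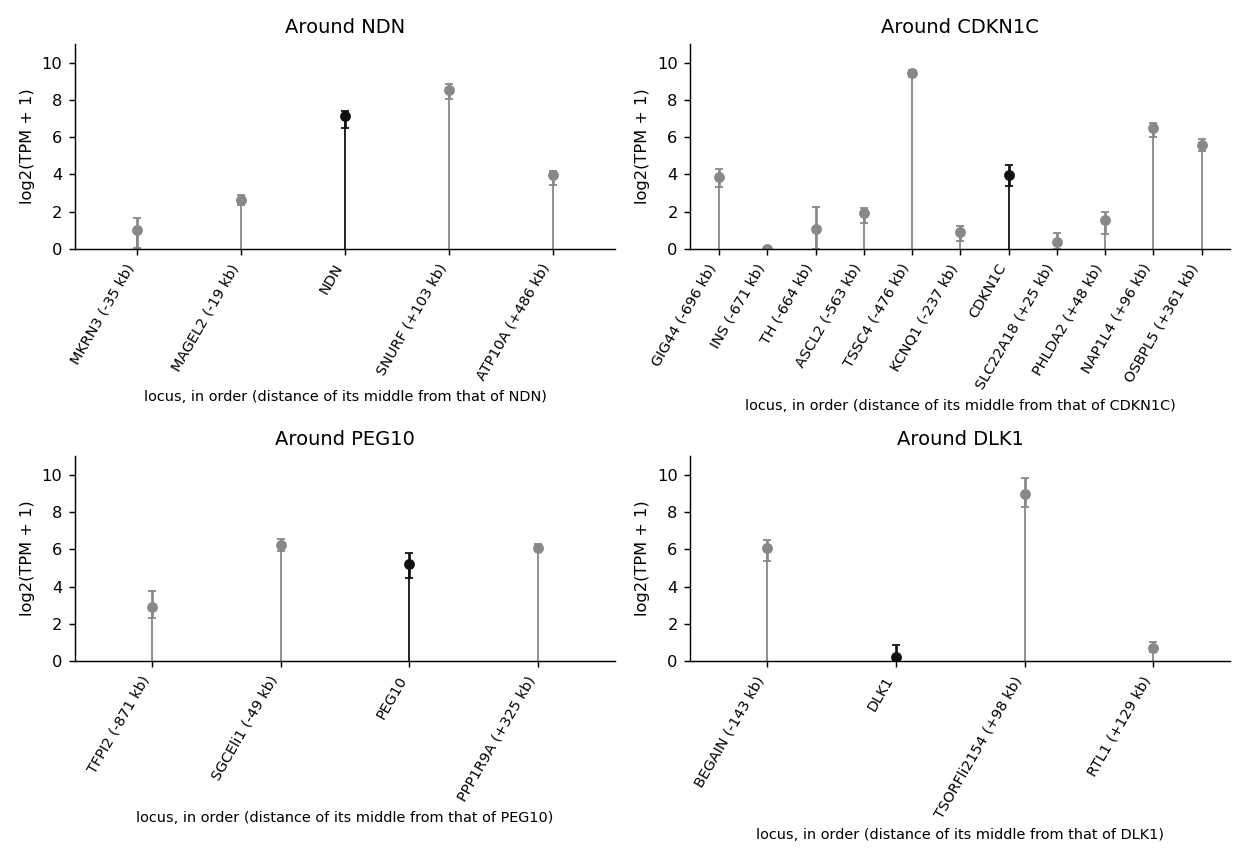
Mean abundance, as log2(TPM + 1), of the listed imprinted genes and the loci picked by position around NDN, CDKN1C, PEG10 and DLK1, in chromosomal order, with bars from the lowest to the highest of the 6 animals and the distance in kb in each label. SNURF at 361.9 TPM and TSSC4 at 705.6 TPM were the highest of the loci shown around NDN and CDKN1C, while DLK1 at 0.171 TPM lay between BEGAIN at 66.8 TPM and TSORFli2154 at 499.9 TPM.

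Around CDKN1C, 9 of the other imprinted genes had a row within 1 Mb. KCNQ1, a potassium channel gene, was 37748 bp away and had a mean of 0.864 TPM, and SLC22A18 was 2050 bp away at 0.308 TPM. PHLDA2, a growth regulator of the placenta, was at 1.92 TPM. The more distant NAP1L4 and OSBPL5 were at 88.1 and 46.2 TPM, and TSSC4 was at 705.6 ± 69.6 TPM (SD, n = 6). No row carried the name CD81, a gene beside TSSC4 in human. The remaining loci were ASCL2 at 2.76 TPM, TH at 1.12 TPM and INS, which was listed at 0 in each animal.

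GRB10 lay between DDC and COBL. DDC, the decarboxylase of dopamine and serotonin synthesis, was 18368 bp away with a mean of 0.721 TPM, and COBL, an actin nucleator, was 147221 bp away with 67.7 TPM. The mean of GRB10, 21.6 TPM, stood between both.

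PEG10 overlapped the locus SGCEli1 by 1071 bp at their start sites, on opposite strands. SGCE encodes epsilon-sarcoglycan and is the head-to-head neighbour of PEG10 in human, but the row named SGCE lay on chromosome 12, was 528 bp long and was listed at 0. SGCEli1 had a mean of 75.4 TPM and ranged from 58.0 to 92.1 TPM. In likeness to the profile of PEG10, SGCEli1 was 461st, PPP1R9A 7254th and TFPI2 10065th of 11278 genes. PPP1R9A, a synaptic scaffold gene on the other side of PEG10, was at 65.1 ± 7.37 TPM (SD, n = 6). TFPI2 was 858715 bp away with 6.56 TPM.

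MEST lay within the span of COPG2, on the opposite strand, so that all 15679 bp of its locus were shared. COPG2, a subunit of the coatomer of vesicle transport, had a mean of 20.0 TPM, and CPA4, 173281 bp from MEST, was at 2.88 TPM. PLAGL1 overlapped ZC2HC1B by 10180 bp on the opposite strand. The protocol names no strand-specific step, so reads of such overlapping pairs cannot be assigned with certainty, and the values of MEST, PEG10 and PLAGL1 carry this limit. Overlaps of the other members were looked for only with the listed imprinted genes and the loci picked by position.

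DLK1 had BEGAIN at 114706 bp on one side and RTL1 on the other, as in human. BEGAIN, a gene of the postsynapse, was at 66.8 TPM and RTL1, another gene derived from a retrotransposon, at 0.651 TPM. Between DLK1 and RTL1 lay the locus TSORFli2154, 65883 bp from DLK1 and 3889 bp from RTL1, on the same strand as DLK1. It ranged from 304.0 TPM in male 1 to 897.1 TPM in female 4. In human and mouse the long non-coding RNA gene MEG3 lies in this interval, no row carried that name, and the tables do not say what TSORFli2154 encodes. This locus was chosen after its values were seen.

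IGF2 encodes a fetal growth factor, and its place in human is between MRPL23 and INS. RefSeq lists IGF2 in this order in the tree shrew as well. In the tables, 2 long non-coding loci with IGF2 in their identifier lay on chromosome 17 and were listed at 0. The locus GIG44 lay 8829 bp from the nearer of them and 18569 bp from INS, on chr17:46647340-46659332 (minus strand). GIG44 was at 8.97, 9.28 and 13.6 TPM in females 1, 3 and 4 and at 13.7, 15.8 and 18.7 TPM in males 1, 4 and 5. Every male was above every female, as in 4.93% of the loci tested, and the female minus male difference was -0.57 ± 0.27 (SE) on the log2(TPM + 1) scale (limma, adjusted p = 0.926). The tables do not say whether GIG44 holds IGF2 transcripts, and it was picked by position after its values were seen.

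PEG3 encodes a zinc finger protein that in mouse affects maternal behaviour and fetal growth. On chromosome 27, 3 long non-coding loci with PEG3 in their identifier were listed at 0. At 153 bp from the first of them lay a pair of unnamed loci that overlapped by 30247 bp on opposite strands. The locus on the plus strand ranged from 82.4 to 333.6 TPM and the one on the minus strand from 6.16 to 134 TPM. Their sum lay between 160.0 TPM in male 4 and 345.9 TPM in male 1, so the split between strands varied more than the sum, which had a CV of 30.2%. The named genes on either side were SMIM17 and ZNF805, and the identity of the pair is not given in the tables. The pair too was chosen after its values were seen.

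The sex comparison asked whether abundance in the PFC differed between females and males. None of the 6 tested genes was called at an adjusted p under 0.1 by limma with Benjamini-Hochberg adjustment over all loci tested, beside 5 of 30238 loci, or 0.0165% (0.00992% higher in females and 0.00661% higher in males). None had an unadjusted p under 0.05, against 5.03% of all loci. CDKN1C was under it without male 1 and NDN without male 4, in fits of limma where 7.19% and 8.54% of all loci were under it. The sexes overlapped for each of the 6 tested genes, and did not overlap for 9.86% of all loci tested (4.92% with the females and 4.93% with the males on top).

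CDKN1C had the widest difference, 0.55 ± 0.27 (SE) higher in females on the log2(TPM + 1) scale (limma, adjusted p = 0.926). That of NDN was wider without female 1, at 0.43 beside 0.41 for CDKN1C, and without male 4, at 0.60 beside 0.50. NDN was 0.44 ± 0.21 higher in females (limma, adjusted p = 0.926) and GRB10 0.30 ± 0.27 (limma, adjusted p = 0.927). Without male 5 the difference of NDN was 0.25, and that of GRB10 was 0.073 without female 3 and 0.53 without female 4. PEG10, PLAGL1 and MEST differed by -0.0098 ± 0.36, 0.0098 ± 0.34 and -0.051 ± 0.43. The median difference of the 6 genes was 0.16 and that of all loci tested was -0.029. In simulated data with 3 animals of each sex, 11.7% of the loci changed by 1 log2 unit and 60.4% of those changed by 2 log2 units were called. The simulated noise was independent between loci, with a spread averaged over loci of similar level. These rates are thus no rates for the members themselves.

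**Figure D4:**
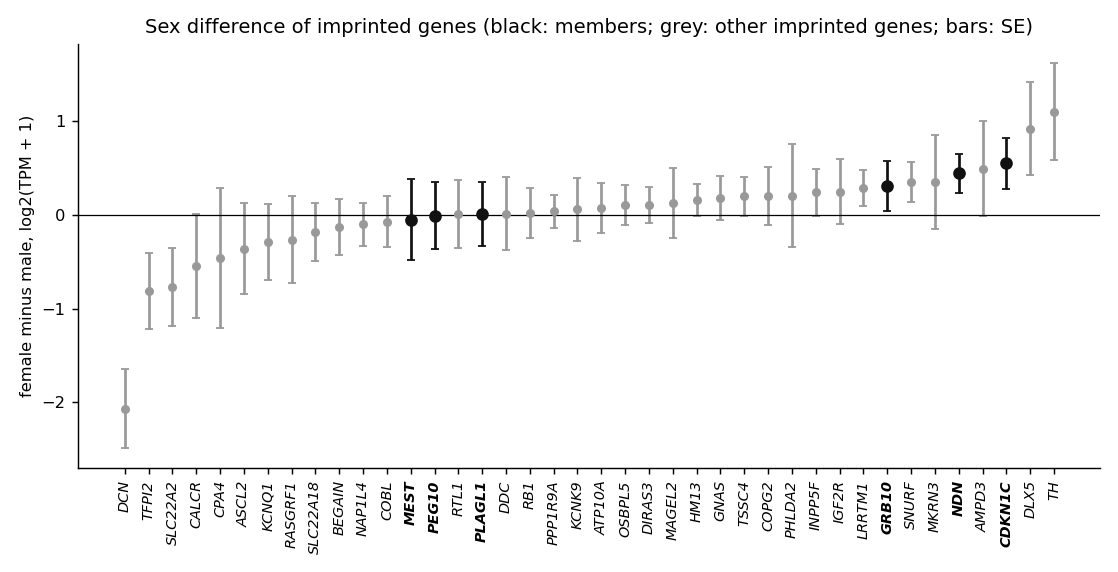
Female minus male difference in log2(TPM + 1), with its SE, for the 6 tested members (black) and the 34 tested other imprinted genes (grey), ordered by value. CDKN1C at 0.55 and NDN at 0.44 lie highest among the members, MEST, PEG10 and PLAGL1 lie near 0, and DCN at -2.07 lies apart from the rest.

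Cell type markers differed between animals as well. Their summed TPM separated the sexes for the oligodendrocyte, blood and fibroblast lists only. In every other list, among them astrocytes, microglia, endothelial cells and inhibitory neurons, the sums of the sexes overlapped. The females held between 347.6 and 481.6 TPM over 3 oligodendrocyte markers, and the males between 80.7 and 235.6 TPM. Of these 3, MAG alone had every female above every male. MOG was at 63.0 TPM in female 4 and 76.4 TPM in male 1, and MBP at 9.79 TPM in female 1 and 13.6 TPM in male 1. Over 3 blood markers the females held between 1275 and 2542 TPM and the males between 62.7 and 101.2 TPM. Over 6 markers of fibroblasts the females held between 25.6 and 36.3 TPM and the males between 54.9 and 79.1 TPM. Without DCN, the other 5 fibroblast markers summed to 30.7, 26.3 and 21.3 TPM in females 1, 3 and 4 and to 31.5, 48.8 and 44.1 TPM in males 1, 4 and 5. No marker with a row in these 3 lists was at 0 in all animals. The hemoglobin genes HBQ1 and HBG of the blood list, both higher in females, were 2 of the 5 loci called over the whole table (limma, adjusted p = 0.0071 for each). Their part in the differences of CDKN1C and NDN was not tested. The 5 markers of cortical excitatory neurons with a row summed to between 2321 and 4137 TPM in the 6 animals, so markers of the labelled tissue were present in each.

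Markers of striatal projection neurons also varied between animals. PDE10A, a phosphodiesterase of these neurons, was at 62.9, 67.9 and 22.6 TPM in females 1, 3 and 4 and at 51.7, 21.2 and 23.1 TPM in males 1, 4 and 5. RGS9, a regulator of G protein signalling, was at 48.0, 43.7 and 1.52 TPM in females 1, 3 and 4 and at 54.6, 0.355 and 0.392 TPM in males 1, 4 and 5. The dopamine receptor gene DRD1 was at 5.05, 7.06 and 1.20 TPM in females 1, 3 and 4 and at 4.02, 4.83 and 2.70 TPM in males 1, 4 and 5. PDE10A and RGS9 were thus highest in females 1 and 3 and male 1, while DRD1 was higher in male 4 than in male 1. PEG10, CDKN1C and MEST, 3 of the 6 tested members, were also highest in females 1 and 3 and male 1, and NDN, GRB10 and PLAGL1 were not. This pattern was looked for after the values were seen, and 6.62% of all loci tested had it. The part of striatal tissue in the members' levels was not tested.

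Of 57 other genes that are imprinted in human or mouse, 37 had a row and 34 were tested. None was called. DCN alone had an unadjusted p under 0.05 in limma, or 1 of 34 against 5.03% of all loci, and without male 1 this count was 6, against 7.19% of all loci in that fit. The median difference was 0.067, beside -0.029 over all loci tested. The 5 most abundant were GNAS, which encodes the stimulatory G protein subunit, at 950.1 TPM, TSSC4 at 705.6 TPM, SNURF at 361.9 TPM, NAP1L4 at 88.1 TPM and INPP5F at 81.9 TPM. NDN, at 137.7 TPM, ranked between SNURF and NAP1L4, and PEG10 was the only other member above 30 TPM. These ranks are of rows as named, and whether the TSSC4 row, 27243 bp long, also holds CD81 transcripts is not known.

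The 5 widest sex differences among these other imprinted genes were those of DCN, TH, DLX5, TFPI2 and SLC22A2. DCN encodes decorin, a matrix proteoglycan of fibroblasts, and stood in the fibroblast marker list as well. It was at 5.60, 3.80 and 4.24 TPM in females 1, 3 and 4 and at 31.9, 30.4 and 10.8 TPM in males 1, 4 and 5, a difference of -2.07 ± 0.42 (SE; limma, adjusted p = 0.926). TH, the rate-limiting enzyme of dopamine synthesis, differed by 1.10 ± 0.52, DLX5, a homeobox factor of inhibitory neurons, by 0.92 ± 0.49, TFPI2 by -0.81 ± 0.41 and SLC22A2 by -0.77 ± 0.42, each with an adjusted p of 0.926 in limma. TH was listed at 0 in males 4 and 5, and its difference was 0.69 without female 3, 0.43 on FPKM and 2.94 and 5.10 with pseudocounts of 0.1 and 0.01. That of DLX5 was 0.61 without female 3 and 1.41 without female 4, and that of TFPI2 was -0.53 without male 5. DLX5 was at 30.3, 36.7 and 11.3 TPM in females 1, 3 and 4 and at 22.3, 8.18 and 9.04 TPM in males 1, 4 and 5, so the sexes overlapped. It was highest in females 1 and 3 and male 1, as PDE10A and RGS9 were, a pattern held by 6.62% of all loci tested, and the part of striatal tissue in it was not tested.

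Of 19 partners in IGF, insulin and Notch signalling, 17 had a row, 16 were tested and none was called. An unadjusted p under 0.05 was found for IGFBP2 and IGFBP7, both higher in females, or 2 of 16 against 5.03% of all loci. IGFBP2, a binding protein that holds IGFs outside cells, was at 58.4, 71.0 and 52.8 TPM in females 1, 3 and 4 and at 39.6, 29.2 and 44.3 TPM in males 1, 4 and 5, and IGFBP7 had a mean of 63.7 TPM. The other 3 of the 5 most abundant partners were DLK2, the paralogue of DLK1, at 79.0 TPM, IGFBP6 at 73.1 TPM and IGF2R, the clearing receptor of IGF2, at 15.8 TPM. DLK2 thus stood far above DLK1 in the same tissue, with 46.1 TPM in its lowest animal.

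Of 17 relatives of the members, 10 had a row and 8 were tested. None was called, and SNRPG had an unadjusted p under 0.05, or 1 of 8 against 5.03% of all loci. The Sm protein genes SNRPB and SNRPD3 were at 104.1 and 99.9 TPM, while the rows named SNRPE and SNRPF were listed at 0 in each animal. The loci SNRPEli4 and SNRPFli2 had means of 116.7 and 25.8 TPM, so a row of the plain name at 0 was not particular to SNRPN and SGCE. Of the MAGE genes related to NDN, MAGED2 was at 95.3 TPM and MAGED1 at 93.1 TPM. CDKN1A, which encodes p21, was at 12.3 TPM, beside 14.8 TPM for CDKN1C.

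Of 10 factors that maintain imprints, 6 had a row and 3 were tested, CTCF, SMCHD1 and UHRF1, with means of 37.8, 8.33 and 2.18 TPM. None was called, and SMCHD1 had an unadjusted p under 0.05, or 1 of 3 against 5.03% of all loci. ZFP57, TRIM28 and ZFP42 were listed at 0 in each animal. TRIM28 is used in most cell types, so its row at 0 does not show that the gene is silent.

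For the members with the widest range across animals, PEG10 and CDKN1C, the genes with the most similar profiles were looked up. PEG10 was followed most closely by PIK3C3, HACD2, SLK, SH3BGR and SPHKAP, with mean absolute differences of 0.086 to 0.091 in centred log2(TPM + 1) over 6 animals. CDKN1C was followed by LIPM, SEPTIN1, INAVA, CFL2 and VWA1, with 0.088 to 0.097. Each of these 10 genes lay on another chromosome than the member it followed. This likeness over 6 animals is a description, was picked from 11278 genes compared and carries no test.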

How the data were processed

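RNA from the PFC of 3 female and 3 male tree shrews was measured. The authors enriched polyadenylated RNA, mapped paired reads to TS_3.0 with HISAT2 2.2.1, and assembled and merged transcripts with StringTie 2.2.1, animal by animal. The deposited tables hold StringTie TPM, FPKM and mean coverage per locus, and no read counts. In each table the deposited FPKM is TPM times 1 fixed factor. The TPM of an animal summed to 950532 to 971492, and 2.30% to 7.88% of it lay on loci without a strand.

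Rows of one gene ID and chromosome were summed. Loci with at least 0.1 TPM in 3 of 6 animals entered limma 3.58.1 (R 4.3.3) on log2(TPM + 1), with trend and without covariates, over 30238 loci, after 176 loci of the male-only segments of chromosomes X and 26 were removed. Fold changes on this scale understate changes of low genes. Neighbouring levels were compared by exact sign-flip permutation with numpy 2.4.6. In simulated data 75 of 200 changed loci were recovered, with 3 other calls. Library read totals were not used here, and TPM alone does not give the depth behind a value.

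Genes named are the 10 members, called genes and the 5 most abundant of 4 gene lists (other imprinted genes, partners, relatives, maintenance factors), other imprinted genes within 1 Mb of a member or among the 5 widest sex differences, and the 5 closest profiles of 2 members. Loci named by position (GIG44, TSORFli2154, SGCEli1, the unnamed pair, the Sm copies), single cell type markers and genes with an unadjusted p under 0.05 were added after their values were seen. The members and lists were chosen with earlier results of these data known. Animal numbers 1 and 4 occur in both sexes. Deviations of same-numbered animals correlated at -0.0048 and 0.038, so numbers were not taken as pairs. Methylation data were not analysed here. Alternatives were other pseudocounts, filters, scalings, FPKM, stranded loci, no trend, adjustment over autosomal loci, an animal number block and each animal left out.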

Additional observations from a re-analysis of the deposited data

How the results depend on the processing

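None of the 6 tested members and none of the other imprinted genes was called under any of the 17 alternatives. The lowest adjusted p of any member was 0.495, for NDN without male 4. CDKN1C, GRB10 and NDN kept a higher female mean in all alternatives, with differences of 0.41 to 0.74, 0.073 to 0.53 and 0.25 to 0.60. The small differences of the other members changed sign, and with 1 animal left out they ranged from -0.14 to 0.12 for PLAGL1, from -0.20 to 0.19 for MEST and from -0.33 to 0.34 for PEG10. PLAGL1 was at -0.0010 with median-ratio scaling, -0.040 with stranded loci only, -0.11 without female 1 and -0.14 without male 1. MEST was at 0.19 with quantile normalization, 0.19 without female 4 and 0.065 without male 1. PEG10 was at 0.024 with FPKM, 0.34 without female 4 and 0.21 without male 1. Over all loci, 5 calls became 8 with the 1 TPM filter, 2 without the trend and 3 with the animal number as a block, and 3 to 7 with 1 animal left out, with 3 without female 1 and 3 without male 5. The block changed no call of a member. Female 3 and male 5 had numbers of their own, so only animals 1 and 4 of each sex informed the differences with the block. For neighbouring levels, the smallest exact p with 5 animals is 0.0625, so leaving out 1 animal could not test the order. Unadjusted, the count of members with p under 0.05 in limma rose from 0 to 1 without male 1 (CDKN1C) and without male 4 (NDN), while the share of all loci rose from 5.03% to 7.19% and 8.54%. That of other imprinted genes rose from 1 to 6 without male 1, and to 2 without female 4 and with stranded loci only. In these last fits 4.26% and 4.76% of all loci were under it. TH moved from 1.10 to 2.94 and 5.10 with pseudocounts of 0.1 and 0.01, 0.43 with FPKM, 0.53 with the block and 0.69 without female 3. DLX5 moved from 0.92 to 0.42 with the block, 0.61 without female 3 and 1.41 without female 4. TFPI2 moved from -0.81 to -0.47 with the block and -0.53 without male 5, and SLC22A2 from -0.77 to -0.42 with the block. The mean of DLK1 fell from 0.171 to 0.037 TPM without female 1. The cause of these changes was not tested.

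With 3 animals of each sex, 11.7% of simulated differences of 1 log2 unit were called. TPM keeps no depth, and mean coverage was not turned into read counts, so values near 0, as for DLK1, are given without a counting interval. With the 1 TPM filter TH had no value. Loci without a strand held 7.88% of TPM in male 5 and 2.30% in female 1. The rows of SNRPN, SGCE, SNRPE, SNRPF and TRIM28 at 0 were read as values of those loci only.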
